A study of Mus musculus with 2 samples.

Results

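CD8 T cells are described here in a single-cell RNA sequencing study of mouse brain, as found in the library of CD45-positive cells. CD45 is a surface protein of leukocytes. A barcode (1 droplet, usually 1 cell) was taken as a CD8 T cell if it had at least 1000 UMIs, at most 20% mitochondrial UMIs, at least 2 of the T cell genes Cd3d, Cd3e, Cd3g, Trac and Trbc2, and at least 2 UMIs of Cd8a and Cd8b1 together. It also had to have no UMI of Cd4 or Foxp3 and fewer than 40 UMIs per 10000 of the microglial genes C1qa, C1qb and C1qc. A UMI (unique molecular identifier) counts 1 captured RNA molecule. The rule found 686 cells among the 7768 barcodes that passed the UMI and mitochondrial limits, of 8662 deposited barcodes, a share of 8.83% (95% exact Clopper-Pearson interval 8.21 to 9.48%). The cells were thus chosen by their measured UMIs of these genes, so the levels of its own genes are a description of the choice and not a result.

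Both libraries came from brains of C57BL mice aged 8 to 13 weeks that the series calls NMOSD-like, with 24 h in the sample names. NMOSD, neuromyelitis optica spectrum disorder, is an antibody-mediated inflammatory disease of the central nervous system in people. There was 1 CD45-positive and 1 CD45-negative library, both from such mice, and no untreated group was analysed here. The labels leave unstated how the disease-like state was produced, how many mice were pooled, how CD45 was selected and what the 24 h counts from. With 1 library per group no difference could be tested. The 95% intervals printed with values reflect the counting of molecules alone, and all comparisons are between cell populations of the same library.

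CD8 T cells recognise peptides on MHC class I molecules through a T cell receptor, with the CD8 alpha and beta chains as coreceptor. On activation they kill target cells with perforin and granzymes released from cytotoxic granules, and they secrete interferon gamma and chemokines. In the inflamed brain they are found around vessels and in the tissue, and some stay there as resident memory cells that express the integrins CD49a and CD103.

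The markers Cd3e, Cd8a and Cd8b1 and the other T cell genes belong to the rule, so their values describe the choice of cells. Cd3e, a chain of the T cell receptor complex, was at 646 UMIs per 1000000 UMIs (CPM) in the summed cells, Cd8a at 715 CPM with a UMI in 95.5% of cells, and Cd8b1 at 1086 CPM with a UMI in 94.6%. Both CD8 chains were found together in 618 of the 686 cells (90.1%), Cd8a alone in 37 and Cd8b1 alone in 31, and all 5 T cell genes in 572 (83.4%). Ccl5, the marker that the rule did not use, had a UMI in 97.4% of cells, against 65.6% of CD4 T cells and 55.9% of the deeper microglial cells. The median cell held 6535.5 UMIs (range 1093 to 27621) and 2082.5 genes, with 1.7% mitochondrial UMIs. Comparison populations were cut from the same library: 756 CD4 T cells (Cd4 but no Cd8 or Foxp3; median 5235 UMIs), 53 regulatory T cells (Foxp3; 5454), 100 NK cells (at least 2 UMIs of Ncr1 and Klrb1c, and no Cd3 gene, Cd8 or Cd4; 5223) and 2073 microglial cells (9394). Of all barcodes, 27 occurred in both libraries, 3 of them CD8 T cells, and the doublet caller Scrublet marked 4 of the 686, which were kept.

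RNA of other cells was present at low levels. The 12 microglial markers summed to 812 CPM in CD8 T cells (787 to 837), against 916 in CD4 T, 859 in regulatory T and 762 in NK cells and 19190 in microglial cells. None of the 12 was at 0, and their sum was 4.23% of the microglial level. The defining NK gene Ncr1, which chose the NK cells, was at 1.61 CPM and Klra8 at 0.201 (320 in NK cells). Neutrophil markers summed to 28.6 CPM with Retnlg, Mmp8 and Ly6g at 0. B cell markers summed to 73.2 CPM, oligodendrocyte and astrocyte markers to 240 CPM with Gja1 at 0, and endothelial markers to 189 CPM with Flt1, Slco1a4 and Esam at 0. Monocyte and macrophage markers summed to 3728 CPM, a list that holds Ly6c2, Plac8 and Ccr2, and dendritic cell markers to 437 CPM, with no member of either list at 0. The part of free RNA in the low levels below was not tested.

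Cells just inside and outside the CD8 threshold differed in level. The 50 cells with exactly 2 Cd8a and Cd8b1 UMIs had Ccl5 at 5242 CPM and Gzmb at 734, and the 636 cells with 3 or more had 8596 and 1531. The 77 cells with 1 such UMI, outside the rule, had 2814 and 329, and the 638 cells with none had 1406 and 253.5. At the microglial limit, 15 members with 30 to 40 C1q UMIs per 10000 had Ctss, a microglial gene, at 744 CPM, and 8 cells just outside at 40 to 50 had it at 1864.

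Promoters of genes that the results below turn on are shown first: Nkg7, Gzmb and Gzma for the cytotoxic granule genes and Isg15 for the interferon-stimulated genes. Each line gives 250 bases upstream of the gene's start in RefSeq, on the gene's strand, in build GRCm38.p6.
Nkg7 promoter, chr7:43436888-43437137, plus strand: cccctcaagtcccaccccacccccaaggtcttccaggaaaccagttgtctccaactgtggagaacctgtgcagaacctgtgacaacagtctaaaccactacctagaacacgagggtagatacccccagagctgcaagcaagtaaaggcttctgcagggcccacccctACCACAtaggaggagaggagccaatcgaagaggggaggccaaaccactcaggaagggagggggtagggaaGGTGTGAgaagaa
Gzmb promoter, chr14:56262335-56262584, minus strand: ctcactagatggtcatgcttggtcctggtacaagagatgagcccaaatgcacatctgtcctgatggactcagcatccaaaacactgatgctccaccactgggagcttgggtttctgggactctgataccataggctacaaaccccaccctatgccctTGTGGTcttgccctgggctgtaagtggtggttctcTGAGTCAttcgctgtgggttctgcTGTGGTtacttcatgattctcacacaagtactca
Gzma promoter, chr13:113100982-113101231, minus strand: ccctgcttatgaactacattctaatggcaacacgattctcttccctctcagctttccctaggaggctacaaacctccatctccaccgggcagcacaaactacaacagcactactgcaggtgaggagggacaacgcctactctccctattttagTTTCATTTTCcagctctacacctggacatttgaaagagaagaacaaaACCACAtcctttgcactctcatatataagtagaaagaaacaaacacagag
Isg15 promoter, chr4:156200819-156201068, minus strand: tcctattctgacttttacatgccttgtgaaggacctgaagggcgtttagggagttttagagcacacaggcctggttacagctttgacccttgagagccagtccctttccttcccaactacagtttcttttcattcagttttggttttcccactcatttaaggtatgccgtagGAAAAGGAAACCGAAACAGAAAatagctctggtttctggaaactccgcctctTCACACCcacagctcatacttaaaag

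Capitals mark matches, on either strand, to 4 short motifs: TGTGGT, bound by RUNX factors, GGTGTGA, bound by T-box factors such as T-bet and eomesodermin, TGACTCA, bound by AP-1, and the core of the interferon-stimulated response element, which is GAAA, any pair of bases, and GAAA again. The Nkg7 window held 1 RUNX and 1 T-box match, the Gzmb window 2 RUNX and 1 AP-1 match, the Gzma window 1 RUNX match and 1 interferon-element match, and the Isg15 window 3 interferon-element matches and 1 T-box match. Among 27025 promoter windows of the same length, 14.2% held the RUNX letters, 3.31% the T-box letters, 4.43% the AP-1 letters and 3.04% the interferon-element letters. Among the 343 windows of genes at least 2-fold higher in CD8 than in CD4 T cells, the shares were 15.5%, 4.96%, 4.96% and 5.25%. Genes without a UMI in CD4 T cells have no ratio and were left out of these 343. Over the 8196 windows of all genes compared they were 11%, 2.75%, 2.81% and 2.9%. A match is a description of letters, not of binding.

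Cytotoxic granule genes were higher in CD8 than in CD4 T cells. Over CD4 T cells, 10 of 19 measured members were at least 2-fold higher and 0 were at least 2-fold lower, with a median log2 ratio of 1.05. Over all 10392 genes with at least 20 UMIs, 4.36% were at least 2-fold higher, 4.61% at least 2-fold lower, and the median log2 ratio was -0.04. Gzma, encoding granzyme A, was at 907 CPM in CD8 T cells, 31.4 in CD4 T, 43.6 in regulatory T, 5052 in NK and 9.75 in microglial cells. That is 28.9-fold over CD4 T cells (24.3 to 34.6) and 0.179-fold of the NK level. Gzmb, encoding granzyme B, which cleaves caspases in the target cell, was at 1492 CPM against 155 in CD4 T, 570 in regulatory T and 1399 in NK cells. The level in CD8 T cells was 9.61-fold that of CD4 T cells (8.87 to 10.4) and 1.07-fold that of NK cells (0.993 to 1.15).

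Gzmk, encoding granzyme K, set CD8 T cells apart from NK cells as well as from CD4 T cells. It was at 188.5 CPM in CD8 T cells, 38.7 in CD4 T, 10.9 in regulatory T and 11.6 in NK cells, 16.2-fold over NK cells (7.84 to 40.5). Gzmm, encoding granzyme M, was at 23.5 CPM against 1.65 in CD4 T and 3.32 in NK cells. Gzmc was the reverse, at 8.65 CPM in CD8 T and 367 in NK cells. Prf1, encoding the pore protein perforin, was at 103 CPM in CD8 T, 11.6 in CD4 T, 16.4 in regulatory T and 506 in NK cells, 8.89-fold over CD4 T cells (6.62 to 12.2) and 0.203-fold of the NK level.

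The granule membrane protein gene Nkg7 was found in 97.4% of CD8 T cells and 10.8% of microglial cells. Its level of 2468 CPM was 5.9-fold that of CD4 T cells (5.61 to 6.2) and 1.02-fold that of NK cells (0.963 to 1.08). Ctsw, encoding cathepsin W, was at 631 CPM against 207 in CD4 T cells, and Cst7, encoding cystatin F, at 139 against 23.6. The death ligand genes Fasl (90.9 against 41.3 CPM) and Tnfsf10 (55.1 against 26.7) were 2.2-fold and 2.07-fold over CD4 T cells. Srgn, encoding the granule proteoglycan serglycin, was at 963 CPM in CD8 and 978 in CD4 T cells. Other scalings of the libraries (TMM factors, median of ratios) moved the median log2 ratio over NK cells by 0.133 and 0.202 and that over regulatory T cells by 0.125 and 0.192. The genes at least 2-fold higher and lower than in NK cells numbered 811 and 822, and 960 and 640 with TMM and 1048 and 560 with the median of ratios. For regulatory T cells they numbered 897 and 943, 1114 and 736, and 1215 and 635. Over NK cells the cytotoxic list had 2 of 19 members at least 2-fold higher (Gzmk, Gzmm) and 5 lower (Gzma, Gzmc, Prf1, Serpinb6b, Serpinb9), beside 8.45% and 8.56% of all 9602 genes. Serpinb9, encoding an inhibitor of granzyme B, was at 101 CPM in CD8 T and 418 in NK cells.

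**Figure D1:**
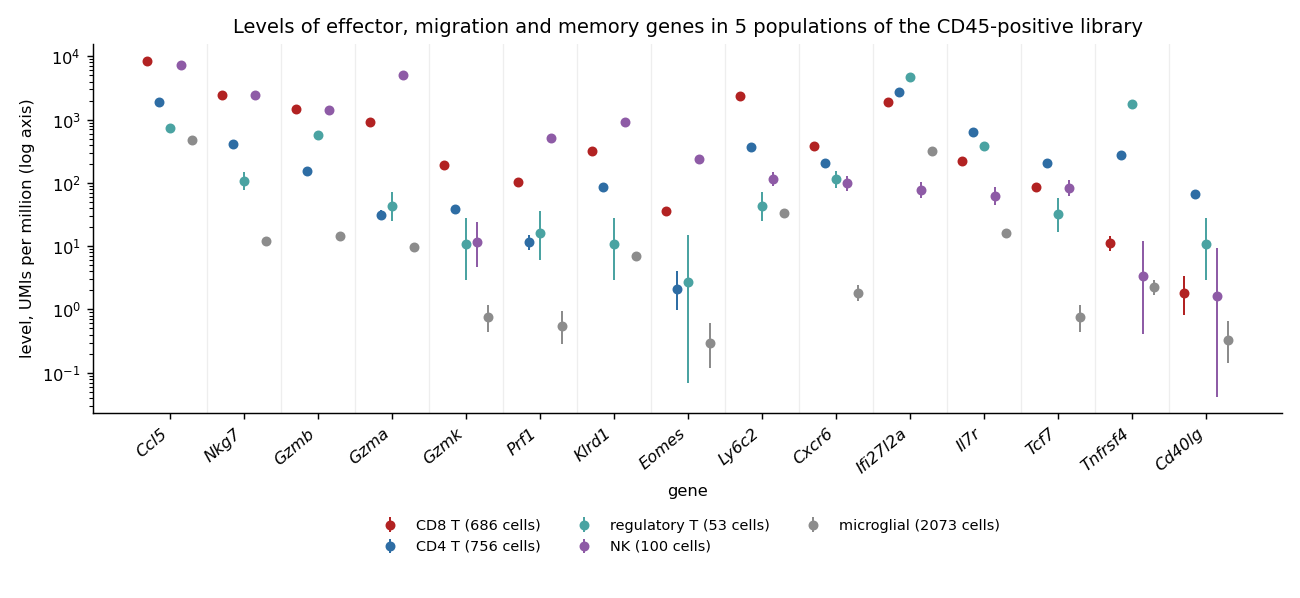
Level of 15 genes (x axis) in CPM (y axis, log axis) in the 5 populations; points are summed levels of each population and bars 95% Poisson intervals that cover counting error only. CD8 T cells sat near NK cells for Ccl5, Nkg7 and Gzmb, below them for Gzma and Prf1, and above every other population shown for Ly6c2, Gzmk and Cxcr6.

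The chemokine genes Ccl5, Ccl4, Ccl3 and Xcl1 were higher than in CD4 T cells, and the last 3 lower than in NK cells. Ccl5, a chemokine of activated lymphocytes, was at 8432 CPM in CD8 T cells (8352 to 8513), 1892 in CD4 T, 747 in regulatory T, 7216 in NK and 469 in microglial cells. It was spread over the cells, and the 10 highest cells held 7.07% of its UMIs. Ccl4 was at 270 CPM against 37.1 in CD4 T cells, but at 888 in NK and 693 in microglial cells, and 12.4% of its UMIs in CD8 T cells were in 1 cell. Ccl3 was at 50.3 CPM with 26.8% of its UMIs in 1 cell. Xcl1, whose receptor is carried by cross-presenting dendritic cells, was at 85.3 CPM in CD8 T, 25 in CD4 T, 0 in regulatory T and 1386 in NK cells. It was concentrated: 71 cells with at least 2 UMIs held 84.7% of it. Ifng, encoding interferon gamma, had a UMI in 22.6% of CD8 T cells and 7.41% of CD4 T cells, while its summed level was 61.2 against 70.8 CPM. The microglial share with an Ifng UMI was 0.338%. Tnf was at 13.9 CPM in CD8 T cells, 27.6 in CD4 T and 103 in microglial cells. Of 14 measured cytokine and chemokine genes, 4 were at least 2-fold higher than in CD4 T cells (Ccl3, Ccl4, Ccl5, Xcl1) and 3 lower (Il17a, Il2, Lta). In CD4 T cells 1 cell held 80.4% of the Il2 UMIs, and 1 cell held 80.4% of the Il17a UMIs. Over NK cells 3 of 13 were at least 2-fold higher (Il2, Lta, Ltb) and 4 lower (Ccl3, Ccl4, Tgfb1, Xcl1).

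Killer lectin and other receptors shared with NK cells were higher than in CD4 T cells in 11 of 16 measured members and lower in 0, with a median log2 ratio of 2.08. Of the 11, 4 are Klra genes, which are near-identical copies whose reads can be split or lost between them, so their values are uncertain. Klrd1, encoding CD94, had a UMI in 63.1% of CD8 T cells and its partner Klrc1, encoding the inhibitory receptor NKG2A, in 50.7%, against 4.58% and 1.06% of microglial cells. Klrc1 was at 219 CPM against 26.2 in CD4 T cells, 8.38-fold (6.89 to 10.3), and Klrd1 at 322 against 86.9. Klrk1, encoding the activating receptor NKG2D, was at 228 CPM against 64.2. Cd160, encoding a receptor for the ligand HVEM, was at 94.9 CPM in CD8 T, 4.48 in CD4 T, 5.46 in regulatory T and 143 in NK cells, 21.2-fold over CD4 T cells (13.4 to 35.5). Klrg1, a mark of short-lived effector cells, was at 13.3 CPM.

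Against NK cells the same list was lower, with 14 of 18 members at least 2-fold lower, 0 higher, and a median log2 ratio of -3.98. The signalling adapters Fcer1g and Tyrobp were at 127 and 147 CPM in CD8 T cells, 2358 and 1975 in NK cells and 2862 and 2441 in microglial cells. Their levels in CD8 T cells were 4.43% and 6.01% of the microglial ones, near the share of the microglial markers. Of their UMIs in CD8 T cells, 18.1% and 23.6% were in 6 members with MHC class II genes, described below. The other 680 members had Fcer1g at 106 CPM and Tyrobp at 114. Klre1 was at 33.8 CPM in CD8 T and 748.5 in NK cells. Genes higher than in NK cells included the T cell signalling gene Themis (140 CPM, 0 UMIs in NK cells, at least 28.1-fold by a floor of 3 UMIs) and Cd5 (127.5 CPM, 0 UMIs in NK cells, at least 25.6-fold), and Bcl11b, a T lineage factor, at 288 against 11.6 CPM.

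Among 20 measured lineage transcription factors only Eomes was at least 2-fold higher than in CD4 T cells, and Zbtb7b at least 2-fold lower. Eomes, encoding a T-box factor of cytotoxic lymphocytes, was at 35.4 CPM in CD8 T, 2.12 in CD4 T, 2.73 in regulatory T and 236 in NK cells, 16.7-fold over CD4 T cells (8.58 to 37.1). It had a UMI in 18.4% of CD8 T cells and 0.338% of microglial cells. Zbtb7b, encoding the CD4 lineage factor ThPOK, was at 9.86 CPM in CD8 T and 46.3 in CD4 T cells. Runx3, encoding a CD8 lineage factor, was at 320 against 235 CPM, and Tbx21, encoding T-bet, at 52.5 against 27.9, with 99.6 in NK cells. The list's median log2 ratio was 0.23.

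Several activation and costimulation genes differed from CD4 T cells, in both directions. Cd40lg, encoding the ligand with which helper T cells activate CD40-bearing cells, was at 1.81 CPM against 65.8 in CD4 T cells, which were 36.4-fold higher (18.9 to 80.4). Tnfrsf4, encoding OX40, was at 11.1 CPM against 274 in CD4 T and 1735 in regulatory T cells, and Icos at 125 against 308 and 475. Other genes lower than in CD4 T cells were Maf (35.8 against 282.5 CPM), Izumo1r (4.63 against 69.4), Ramp3 (13.1 against 128), Trat1 (3.82 against 49.1), Ccr6 (0 against 7.79) and Il4i1 (0 against 17.2). Il13 was at 0 in CD8 T cells and at 133 CPM in CD4 T cells, where 1 cell held nearly all UMIs. Of the 20 activation and memory surface genes, 4 were at least 2-fold higher (Cd226, Cd38, Ly6c2, Slamf7) and 4 lower (Cd40lg, Icos, Tnfrsf18, Tnfrsf4).

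Ly6c2, a surface protein gene of effector and memory CD8 T cells and of monocytes, was at 2400 CPM in CD8 T cells, 366 in CD4 T, 43.6 in regulatory T, 116 in NK and 33.8 in microglial cells. It was 6.56-fold over CD4 T cells (6.22 to 6.92) and had a UMI in 78.3% of CD8 T and 15.1% of microglial cells. Ly6c1 is a near-identical copy, so the 2 may share reads. Slamf7, a receptor of cytotoxic lymphocytes, was at 106 CPM against 20.1 in CD4 T cells and Cd226 at 213 against 100.1. Genes with the strongest ratios over CD4 T cells, ranked by the interval bound, also held Crtam, encoding an adhesion receptor of activated CD8 T cells (32 against 1.18 CPM), Wdr95 (45.3 against 1.42), Adgrg5 (43.9 against 2.36) and Tcrg-C2 (31.2 against 1.65). The top gene was Gm44175, a non-coding RNA, at 52.7 CPM in CD8 T cells and 0.236 in CD4 T cells. It lies at chr6:71354351-71360829 on the minus strand (mm10), between Cd8b1 and Cd8a, so it adjoins genes of the rule. Iglc1, Hspb1 and Mt2 were also in this ranking, but 95.9%, 93.8% and 42.7% of their UMIs in CD8 T cells were in 1 cell each.

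Recirculation and early memory genes were lower than in CD4 T cells. Of 19 measured members, 9 were at least 2-fold lower and 0 higher, with a median log2 ratio of -0.72. Il7r, encoding the IL-7 receptor of resting and memory T cells, was at 219 CPM against 648 in CD4 T cells, 376 in regulatory T and 63.1 in NK cells, with a UMI in 47.7% of CD8 and 73.8% of CD4 T cells. Tcf7, encoding the memory factor TCF-1, was at 85.1 CPM against 207, Klf2, a factor that drives exit from tissue, at 130.5 against 370, and its target S1pr1 at 57.5 against 147. Ccr7, the lymph node homing receptor, was at 14.3 against 45.6 CPM.

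Residency genes were mixed. Of 19 measured members, 3 were at least 2-fold higher than in CD4 T cells (Cdh1, Itga1, Itgae) and 5 lower (Ahr, Ctla4, Hspa1a, P2rx7, Rgs2), with a median log2 ratio of -0.04. Itga1, encoding CD49a, was at 104 CPM in CD8 T cells, 41.5 in CD4 T, 86.3 in NK and 0 in regulatory T cells, 2.51-fold over CD4 T cells (2.11 to 3). Itgae, encoding CD103, was at 16.5 CPM in CD8 T, 3.78 in CD4 T, 32.7 in regulatory T and 0 in NK cells. Cxcr6, the receptor for CXCL16, had a UMI in 75.4% of CD8 T and 1.98% of microglial cells, at 379 CPM against 203 in CD4 T and 97.9 in NK cells. Cd69, an activation and residency marker, was at 357 CPM in CD8 and 352 in CD4 T cells.

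Of the chemokine receptors, Cxcr3, which responds to interferon-induced ligands, had a UMI in 69.8% of CD8 T and 2.27% of microglial cells and was at 236 CPM in CD8 and 254 in CD4 T cells. Ccr2 was at 256 CPM against 147 in CD4 T cells, and Gpr18 was at 59.5 against 25 CPM. Of 15 measured receptors, 3 were at least 2-fold higher than in CD4 T cells (Ccr9 and Gpr18 among them) and 5 lower (Ccr1, Ccr4, Ccr6, Ccr7, S1pr1). The Ccr9 count rested on few cells, with 52.5% of its UMIs in 1 cell. Itga4, a chain of the integrin VLA-4 used to enter the brain, was at 264 CPM against 370 in CD4 T cells, Itgb1 at 407 against 393, and Itgal, a chain of LFA-1, at 319 against 241. Itgax, encoding CD11c, was at 39.6 CPM against 2.6 in CD4 T cells and 96.3 in NK cells.

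The inhibitory receptor and exhaustion list held genes above and genes below their levels in CD4 T cells. Pdcd1, encoding PD-1, had a UMI in 30.3% of CD8 T cells and 4.92% of microglial cells, and its level of 106 CPM was beside 95.6 in CD4 T, 109 in regulatory T and 29.9 in NK cells. Lag3 was at 49.5 CPM against 7.32 in CD4 T cells, 6.76-fold (4.64 to 10.2), and Havcr2, encoding TIM-3, at 23.9 against 5.66, 4.23-fold (2.71 to 6.85). Microglial cells had 84.8 CPM of Lag3 and 85.3 of Havcr2, and the levels in CD8 T cells were 58.3% and 28.1% of these, against 4.23% for the summed microglial markers. Tox, a factor of chronically stimulated T cells, was at 40.4 CPM against 26.4 in CD4 T and 92.7 in regulatory T cells, and Tigit at 2.62 CPM. Of 19 measured members, 5 were at least 2-fold higher than in CD4 T cells (Cd160, Cd244a, Havcr2, Lag3, Nr4a2) and 4 lower (Btla, Ctla4, Nr4a1, Nr4a3), with a median log2 ratio of 0.11.

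Interferon-stimulated genes were at high levels in CD8 T cells and far above NK cells. Over NK cells 14 of 24 measured members were at least 2-fold higher and 1 lower, with a median log2 ratio of 1.19, where that of all genes was -0.11. Ifi27l2a was at 1907 CPM in CD8 T, 2688 in CD4 T, 4765 in regulatory T, 78 in NK and 322 in microglial cells. Isg15, encoding a ubiquitin-like modifier, was at 493 CPM in CD8 T, 316.5 in CD4 T, 472 in regulatory T and 39.8 in NK cells, 12.4-fold over NK cells (8.3 to 19.4). Ifit3 was at 229.5 CPM against 141 in CD4 T and 33.2 in NK cells, and Zbp1, a sensor of nucleic acids, at 259 against 166 and 66.4. Against CD4 T cells 0 of 24 were at least 2-fold higher and 3 lower (Ifi44, Iigp1, Oasl2), with a median log2 ratio of 0.35.

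The list varied widely over cells. Its summed level per 10000 UMIs of a cell had a median of 40.4, a 10th percentile of 11.1, a 90th of 129 and a highest value of 347. In CD4 T cells the median was 42.7 and the 90th percentile 126, and in NK cells 11.3 and 30.8. MHC class I genes were all within 2-fold of CD4 T cells, with a median log2 ratio of 0.36. B2m was at 3258 against 2709 CPM, and Psmb10, a subunit of the immunoproteasome, at 337 against 198.

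**Figure D2:**
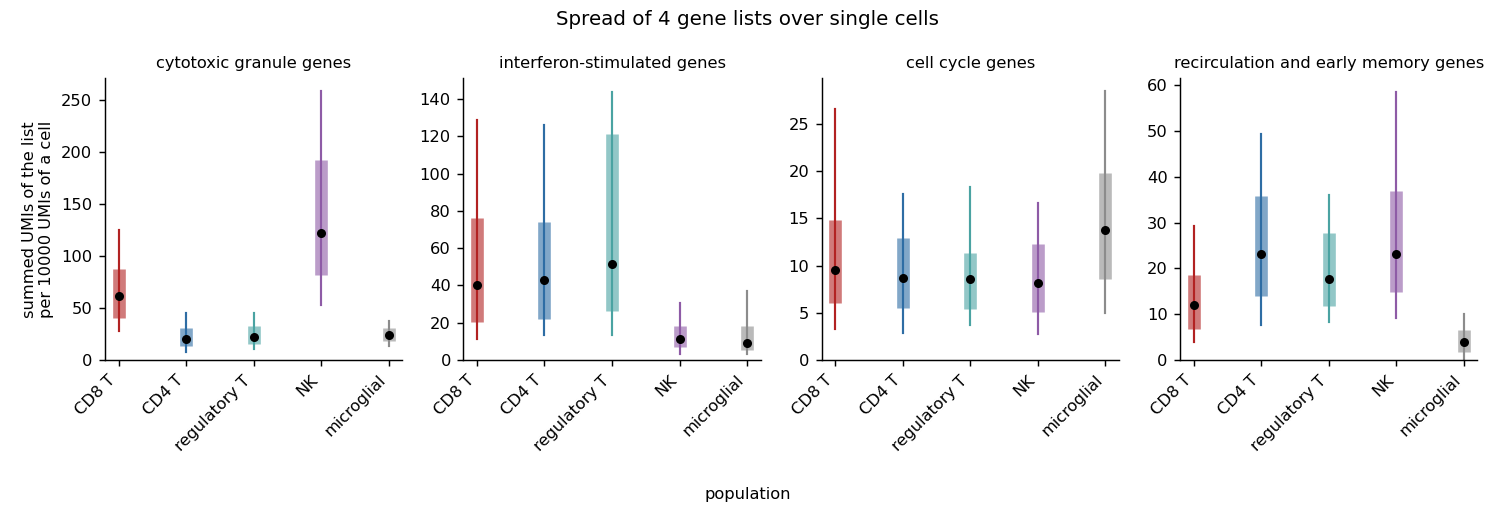
Summed UMIs of 4 gene lists per 10000 UMIs of each cell (y axis) in the 5 populations (x axis); points are medians over cells, thick bars the middle 50% of cells and thin lines the 10th to 90th percentiles. Interferon-stimulated genes had medians of 40.4 in CD8 T and 42.7 in CD4 T cells against 11.3 in NK cells, and the cell cycle list a long upper tail in CD8 T cells.

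Cell cycle genes were higher than in each of the 3 lymphocyte populations. Over CD4 T cells 16 of 20 were at least 2-fold higher and 0 lower, over NK cells 15 and 0, and over regulatory T cells 11 and 0, with median log2 ratios of 1.59, 1.59 and 1.2. Mki67, a marker of cycling cells, was at 87.1 CPM in CD8 T, 26.2 in CD4 T, 21.8 in regulatory T, 1.66 in NK and 14.3 in microglial cells. Pclaf, a factor of DNA synthesis, was at 126.5 CPM against 18.9 in CD4 T cells, 6.7-fold (5.3 to 8.57), Birc5, encoding survivin, at 48.5 against 10.4, and Stmn1 at 160 against 45.1. The list's median level per cell was 9.48 UMIs per 10000 in CD8 T and 8.68 in CD4 T cells, and the highest cells held 216 and 280. The higher sum therefore lay in the upper tail, with 90th percentiles of 26.6 and 17.6.

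Immediate early genes, which cell dissociation can induce, were lower in CD8 than in CD4 T cells. Of 21 measured members 6 were at least 2-fold lower (Btg2, Dusp1, Egr3, Fos, Hspa1a, Hspa1b) and 0 higher, with a median log2 ratio of -0.68. Their summed level was 3225 CPM in CD8 T, 4778 in CD4 T, 5425 in regulatory T and 5128 in NK cells, and its part in the other differences was not tested. Junb was at 374 CPM against 622 in CD4 T cells and Jund at 516 against 793. Hspa1a and Hspa1b are near-identical copies and their split is uncertain. T cell receptor signalling genes had 0 of 20 members past 2-fold in either direction, with Lck, the kinase bound by CD8, at 457 CPM against 391.5. Cytokine receptors had 0 of 22 at least 2-fold higher and 3 lower (Il6ra, Il6st, Il7r).

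**Figure D3:**
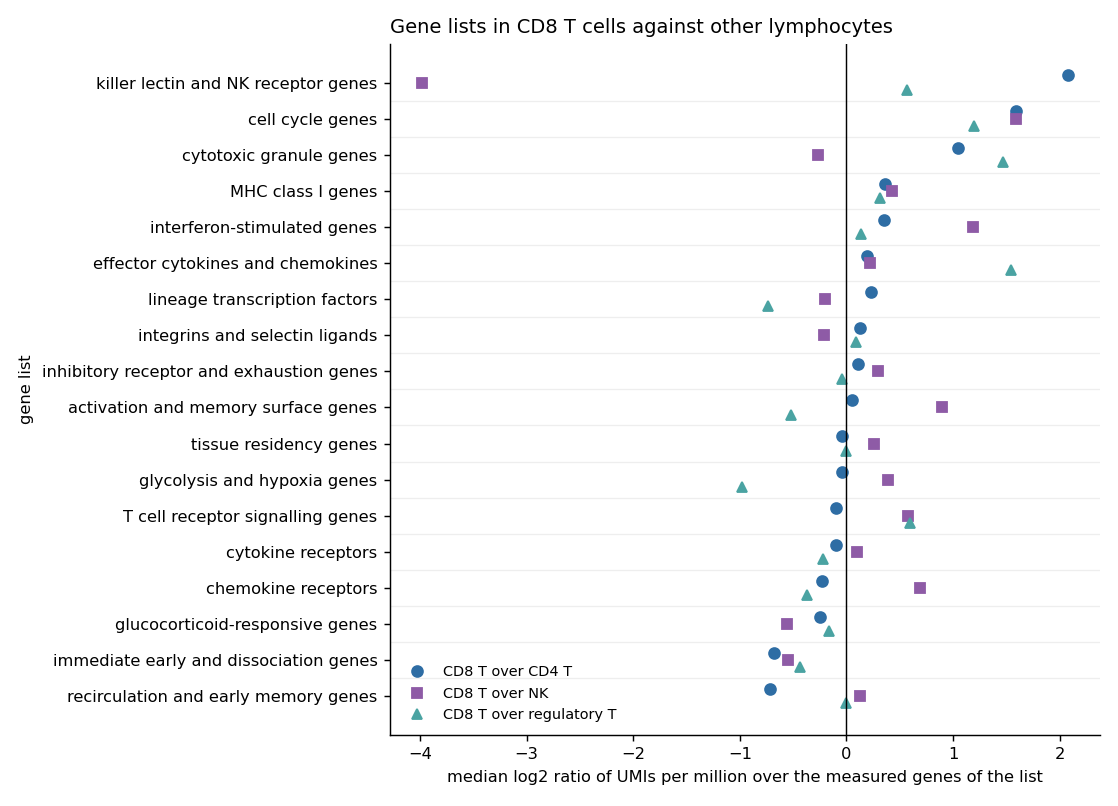
Median log2 ratio of CPM (x axis) over the measured genes of 18 lists (y axis), CD8 T cells over CD4 T (circles), NK (squares) and regulatory T cells (triangles). The killer lectin list lay at 2.08 over CD4 T and at -3.98 over NK cells, and the cell cycle list at 1.59 over both.

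Against regulatory T cells the effector genes were again higher. Cytotoxic genes had 11 of 19 members at least 2-fold higher and 1 lower (Stx11), beside 9.46% and 9.94% of all 9484 genes. Nkg7 was at 109 CPM in regulatory T cells, Klrc1 at 2.73 and Jaml, an adhesion receptor gene at 261 CPM in CD8 T cells, also at 2.73. Regulatory T cells were higher in Tnfrsf9 (974 against 32.6 CPM), Il2ra (603 against 18.5), Ikzf2 (835 against 35.8) and Ccr4 (70.9 against 1.01). Glycolysis and hypoxia genes had 9 of 18 members at least 2-fold lower in CD8 T cells, with Ldha at 317 against 665.5 CPM and Hif1a, the hypoxia factor, at 136 against 515.5. With 53 regulatory T cells these levels carry wide intervals.

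Variable genes of the alpha-beta receptor were detected in a minority of cells. Trbc1 and Trbc2, the constant beta genes, of which Trbc2 was among the genes that chose the cells, were found together in 426 cells (62.1%), Trbc2 alone in 237 and Trbc1 alone in 14. A Trbv gene had a UMI in 158 cells (23%, 19.9 to 26.4) and in 4 of 2073 microglial cells (0.193%). In 28 cells (4.08%) 1 Trbv gene had at least 2 UMIs. Of 35 Trbv genes, 18 were detected in CD8 and 19 in CD4 T cells. Trbv13-2 was found most, in 40 of the 158 cells (25.3%, 18.7 to 32.8), against 12 of 132 CD4 T cells with any Trbv (9.09%, 4.79 to 15.3). Trbv12-2 followed with 23 cells (14.6%), Trbv13-3 with 20 (12.7%), Trbv15 with 17 (10.8%) and Trbv16 with 15 (9.49%). In CD4 T cells Trbv2 was found most, in 21 cells (15.9%, 10.1 to 23.3), and in CD8 T cells it was in 4 (2.53%, 0.694 to 6.35); it was singled out after its values were seen. Of 21 Trbv genes found in either population, 3 had shares whose intervals did not overlap: Trbv13-2, Trbv2 and Trbv20, the last in 2 CD8 T cells (1.27%, 0.154 to 4.5) and 12 CD4 T cells (9.09%, 4.79 to 15.3). Genes of the Trbv13 group are alike in sequence, which makes their split less certain.

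**Figure D4:**
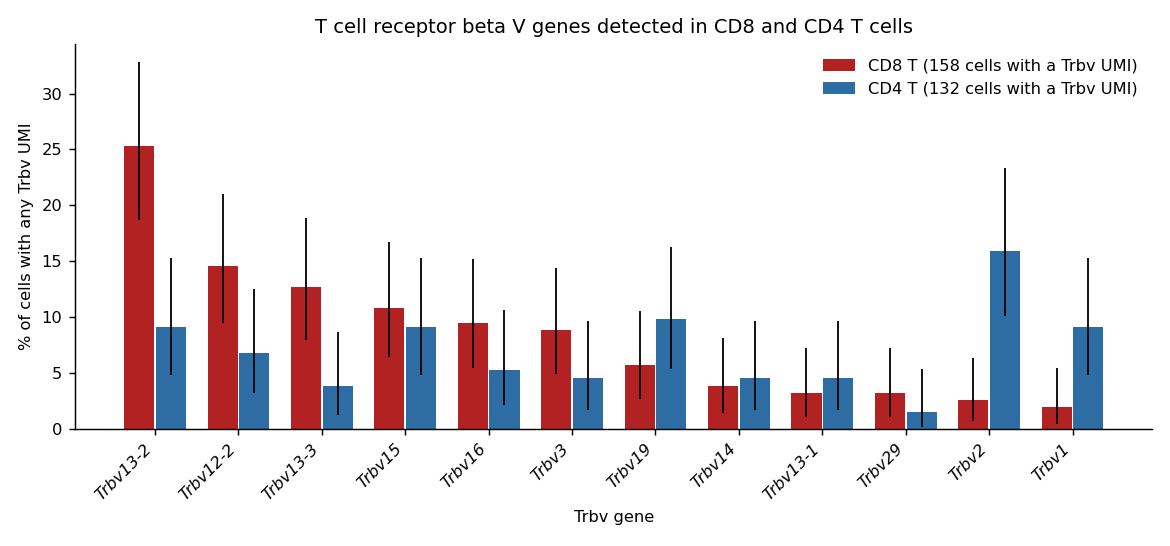
Share of cells with any Trbv UMI that had a UMI of each Trbv gene (y axis, percent) for 12 Trbv genes (x axis), in 158 CD8 and 132 CD4 T cells; bars are shares and lines 95% Clopper-Pearson intervals. Trbv13-2 was at 25.3% of CD8 and 9.09% of CD4 T cells, and Trbv2 at 2.53% and 15.9%.

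Genes of the gamma-delta receptor were present in some members. Tcrg-C2, a constant gamma gene, had UMIs in 72 cells (10.5%, 8.3 to 13) at 31.2 CPM, against 1.65 in CD4 T cells and 1.66 in NK cells. Trdc, the constant delta gene, was in 11 cells (1.6%) at 6.64 CPM, against 13 in CD4 T and 56.4 in NK cells, and 45.5% of its UMIs in CD8 T cells were in 1 cell.

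Cells of the population differed from each other in their granzymes. Of the 3 genes Gzma, Gzmb and Gzmk, none had a UMI in 116 cells (16.9%), 1 in 186 (27.1%), 2 in 215 (31.3%) and all 3 in 169 (24.6%). Since deeper cells show more genes, every cell was also thinned to 1000 UMIs, which left out none, and the shares were then 41.1%, 35.9%, 19.1% and 3.94%. Gzmb was found in 86.9% of cells with Gzma (82.3 to 90.7) and 56.4% of those without (51.5 to 61.3), and after thinning in 74.1% and 35.2%. Gzmk and Gzmb were paired more in full cells (62.4% of Gzmb cells against 38.6%) but after thinning were at 16.7% and 17.4%. Gzma was uneven over cells, with 29.1% of its UMIs in 10 of them. Ifitm1, a membrane protein gene induced by interferon, was in 160 cells and 96% of its 2131 UMIs were in 74 of them. The strongest variance-to-mean ratios also named Mt1, Cxcl2 and Calca, where 1 cell held 36.2%, 74.3% and 75.8% of the UMIs.

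Cells were then split by single genes and compared within the population, without a test. The 537 cells with Ly6c2 (78.3%, median 7091 UMIs) and the 149 without (median 4764) differed in some effector and inhibitory genes. Genes at least 2-fold higher in the cells with Ly6c2 were 4.6% of all, and at least 2-fold lower 4.24%. Of 19 measured cytotoxic granule genes 3 were at least 2-fold higher with Ly6c2 (Gzma, Gzmb, Gzmm) and 0 lower, with a median log2 ratio of 0.26. With Ly6c2, Gzma was at 1029 CPM against 247, 4.16-fold (3.6 to 4.83), Gzmb at 1646 against 665, 2.47-fold (2.26 to 2.71), Ccr2 at 288 against 87.2 and Klrc1 at 244 against 87.2. Ifitm1 was at 500.5 against 42.3 CPM and Plac8 at 914 against 249. When cells were split and summed at 1000 UMIs each, Gzma was at 943 against 521 CPM, Gzmb at 1525 against 833 and Ccr2 at 281 against 110.

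Cells without Ly6c2 had higher levels of some genes of the inhibitory receptor and exhaustion list. Pdcd1 was at 226 CPM without and 84 with Ly6c2, 2.69-fold (2.23 to 3.23), and at 236 against 75.7 at 1000 UMIs. Tox was at 92.3 against 30.8 CPM, Ikzf2 at 98.7 against 24.1 and Tcrg-C2 at 71.8 against 23.6. Of 18 measured inhibitory genes 6 were at least 2-fold lower with Ly6c2 (Cd244a, Ctla4, Nr4a2, Pdcd1, Tnfrsf9, Tox) and 1 higher (Nr4a3). Of 24 interferon-stimulated genes 5 were at least 2-fold higher with Ly6c2 (Bst2, Ifit2, Oas1a, Oasl2, Rsad2) and 0 lower. Of 13 cytokine and chemokine genes 0 were at least 2-fold higher with Ly6c2 and 2 lower, Ccl3 at 30.8 against 155 CPM and Xcl1 at 72.5 against 154. A single cell held 26.8% of the Ccl3 UMIs of all CD8 T cells, so its difference may rest on few cells. Ccl5 was at 8769 against 6620 CPM and Cxcr6 at 386 against 338. Of 8 dendritic cell markers 5 were at least 2-fold higher with Ly6c2 and 0 lower, and all 6 cells with at least 10 UMIs of MHC class II genes had Ly6c2. Of 4 markers of innate lymphoid cells of type 2 all were at least 2-fold lower with Ly6c2 (Calca, Gata3, Hs3st1, Il1rl1). These rested on few cells: the list's median over CD8 T cells was 0 and its highest value 315 UMIs per 10000. A single cell, 1 of the 686, held 75.8% of the Calca UMIs. Without the 6 cells Gzmb was at 1673 against 665 CPM and Pdcd1 at 85.4 against 226.

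The 275 cells with Gzma (40.1%, against 8.2% of CD4 T, 81% of NK and 7.72% of microglial cells) held more cell cycle genes. Of 20 measured, 12 were at least 2-fold higher than in the 411 cells without Gzma and 0 lower, beside 2.38% and 3.8% of all genes. Pclaf was at 225 against 40 CPM, 5.63-fold (4.56 to 7), and Stmn1 at 263 against 69.5. Gzmb was at 2437 against 663 CPM, 3.68-fold (3.48 to 3.88), and Ifng at 88.2 against 37.4. Havcr2 was at 39.2 against 10.6 CPM and Klrg1 at 22 against 5.66. Of 19 recirculation and early memory genes 6 were at least 2-fold lower with Gzma and 0 higher, with Dapl1 at 12.9 against 58.2 CPM and Tcf7 at 45.6 against 120. Of 8 dendritic cell markers 7 were also at least 2-fold lower with Gzma, as were 2 of 3 B cell markers, and 5 of the 6 cells with MHC class II genes lay on the side without Gzma. Without those 6 cells Dapl1 was at 13 against 58 CPM, Tcf7 at 45.9 against 123 and Cd74 at 42 against 54.1. At 1000 UMIs per cell Gzmb was at 2741 against 787, Pclaf at 115 against 44.2 and Tcf7 at 48.2 against 121. Prf1 was at 111 against 95.9 CPM, and at 1000 UMIs at 60.2 against 102.

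**Figure D5:**
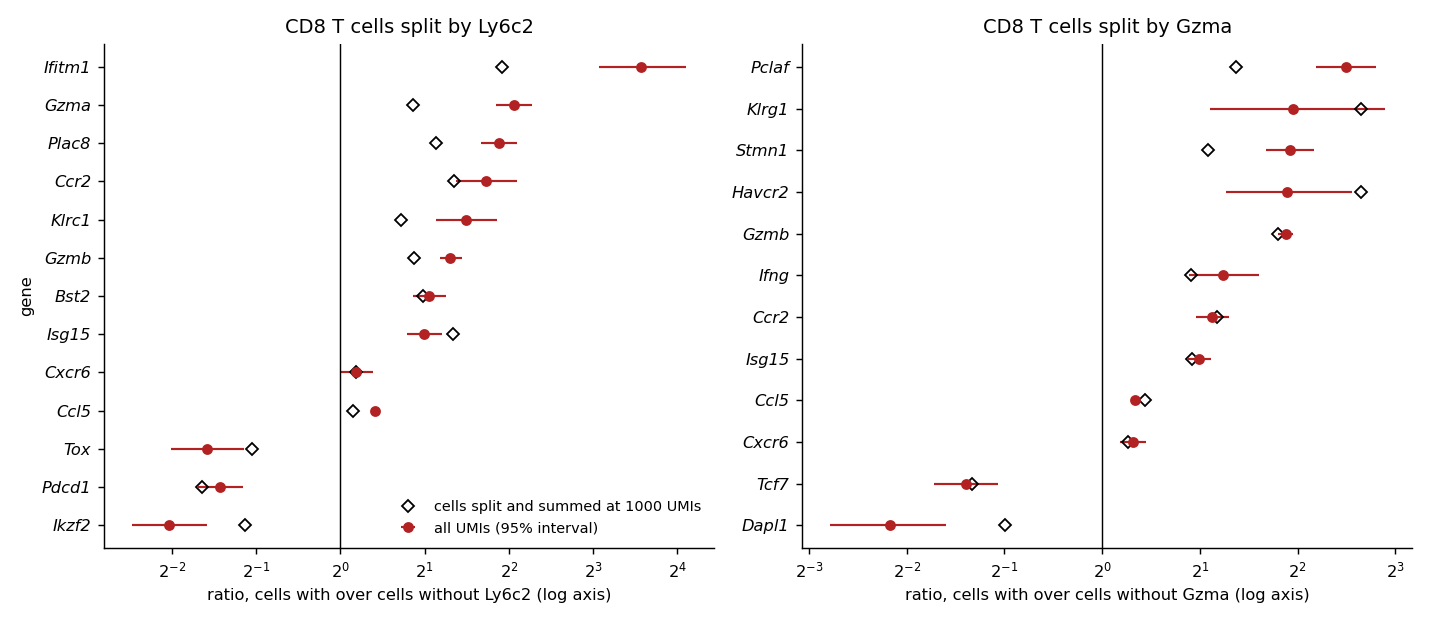
Ratio of CPM in CD8 T cells with a UMI of Ly6c2 (left) or Gzma (right) over cells without (x axis, log axis) for 13 and 12 genes (y axis). Filled points are ratios from all UMIs with 95% intervals that cover counting error only, and open diamonds are ratios after cells were split and summed at 1000 UMIs; Gzmb lay above 1 in both panels, Pdcd1 and Tox below 1 for Ly6c2, and Dapl1 and Tcf7 below 1 for Gzma.

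Cycling cells, taken as those with at least 2 UMIs of Mki67 and Top2a, numbered 95 (13.8%, 11.4 to 16.7), against 4.89% of CD4 T, 9.43% of regulatory T, 3% of NK and 9.94% of microglial cells. They were deep, with a median of 11267 UMIs against 6166 in the rest. At 1000 UMIs the share was 3.79%, against 0.926% of CD4 T, 0 of regulatory T and 0.724% of microglial cells. All 18 other cell cycle genes measured were at least 2-fold higher in them, where 5.61% of all genes were higher and 5.08% lower. Pclaf was at 564 against 6.41 CPM and Stmn1 at 657 against 23.6. Mki67 and Top2a belong to the same list, so these cell cycle values describe the choice of cells and are not a separate result. Gzma was at 1545 against 731 CPM, Cd160 at 157 against 77.9 and Il2ra, the IL-2 receptor alpha chain, at 34.6 against 14.1. Ccl5 was lower, at 5710 against 9179 CPM, as were Bcl2 (309 against 563), Il7r (134 against 242) and Xcl1 (41.1 against 97.4).

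CD49a and CD103 marked overlapping sets. Itga1 was in 265 cells (38.6%, 35 to 42.4; microglial cells 0.579%), and Itgae in 43 (6.27%, 4.57 to 8.35; regulatory T 15.1%, CD4 T 1.59%, NK 0, microglial 0.965%). Itgae was found in 10.6% of cells with Itga1 (7.14 to 14.9) and 3.56% of those without (2.01 to 5.81). Cells with Itga1 were deeper, with a median of 7431 against 6096 UMIs. After thinning to 1000 UMIs the shares were 5.43% (1.79 to 12.2) and 1.01% (0.372 to 2.19), and their intervals overlapped. At 1000 UMIs the Itgae share was 1.6%, and 1.89% in regulatory T cells. Cells with Itga1 had Xcl1 at 130.5 CPM against 52, Ccl4 at 370 against 197 and Cxcr6 at 460 against 319, and less Klf2 (73.1 against 173) and Dapl1 (6.17 against 59.7). Of 19 recirculation genes 8 were at least 2-fold lower with Itga1 and 0 higher, beside 2.36% and 1.33% of all genes. The Xcl1 difference was smaller at 1000 UMIs, at 109 against 90.9 CPM on 10 UMIs in the cells with Itga1.

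The 43 Itgae cells had Ifitm1 at 1274 against 370 CPM, Cd7 at 267 against 89.3, S100a4 at 1994 against 898 and Cd160 at 174 against 89.5. The gamma chain gene Tcrg-C2 was at 77.5 against 28 CPM. Gzma was at 344 against 945.5 CPM, Isg15 at 220.1 against 512, Mki67 at 24.8 against 91.4, and Eomes at 3.1 against 37.6, where 3.1 CPM is 1 UMI. Of 20 cell cycle genes 9 were at least 2-fold lower and 0 higher, beside 7.96% and 4.2% of all genes. These values rest on 322540 UMIs. At 1000 UMIs 11 cells had Itgae, and in these Ifitm1 was at 1364 against 364 CPM and Tcrg-C2 at 0 against 32.6. In them 1 UMI is 90.91 CPM, more than the 77.5 CPM of Tcrg-C2 from all UMIs, so its 0 decides nothing.

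The population included 6 members with MHC class II genes, which T cells of mice do not normally express. The 6 cells (0.875%, 0.322 to 1.89) were chosen by at least 10 UMIs of H2-Aa, H2-Ab1, H2-Eb1 and Cd74 together. They held 67.6% of all H2-Aa UMIs of the population and 69.9% of Cd74, values that describe this choice and are not a result. They also held 93.9% of the UMIs of Cd209a, a dendritic cell gene that the choice did not use. Siglech and Tcf4, genes of plasmacytoid dendritic cells (Siglech also of microglia), were at 473 CPM each in them, against 17.6 and 14.6 in the other 680. Cd3e was at 209 against 654 CPM and Gzmb at 440 against 1512. Of 19 measured cytotoxic genes 1 was at least 2-fold higher in them and 6 were lower, beside 14.3% and 9.38% of all genes. Their median depth was 14322.5 UMIs and the doublet caller marked 1 of the 6. Without them Cd74, a gene that chose them, was at 48.4 CPM in the population, instead of 158.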

How the data were processed

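Droplet-based single-cell RNA sequencing (10x Genomics, 3′ chemistry v3) was done on 1 CD45-positive and 1 CD45-negative library from mouse brain, after mincing, enzyme digestion, straining and removal of debris, per the labels' protocols. The deposited matrices hold raw UMI counts per gene and barcode, which the authors made with Cell Ranger 6.1.2 on mm10, per the submitters' processing notes; no filter before deposit is named there. The files pair each gene identifier with its symbol.

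Barcodes with at least 1000 UMIs and at most 20% mitochondrial UMIs were kept, which left 7768 of 8662. Scrublet (in scanpy 1.11.5) marked 177 barcodes (2.04%, against 6.93% assumed) as doublets; these were kept, and removal was an alternative. Populations were cut by the gene rules given above, and the members and gene lists were chosen with earlier results of these data known. Counts were summed per population and given per 1000000 UMIs (CPM). Ratios carry exact conditional binomial intervals, levels exact Poisson intervals and shares Clopper-Pearson intervals, all at 95%. Genes needed 20 UMIs over both sums, and 2-fold was the limit for a count of genes. The ratio code was tested on simulated data. Since the 3′ assay reads one end of a transcript, levels are compared across populations and not between genes. With 1 library per group there is no test.

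Named were, per list, up to 4 genes of highest level and those past 2-fold from another population with an interval excluding 1, per comparison the 12 genes in each direction with the interval bound farthest from 1, the 12 genes of highest variance-to-mean ratio at 1000 UMIs per cell, and the 5 Trbv genes found in most cells; examples were taken from these, and further genes were named as values of a list or split. Alternatives changed the UMI, mitochondrial, Cd8 and C1q limits, doublets, shared barcodes, scaling (edgeR 4.0.16 for TMM), gene minimum, cell weight and depth. The splits by Ly6c2, Gzma and Itga1, the gene comparison of cycling cells and the leaving out of the cells with MHC class II genes were chosen after seeing the data. Promoter sequences are those of RefSeq for GRCm38.p6, and gene positions those of GENCODE for mm10. Scripts ran under R 4.3.3 and Python 3.11.15, with scipy 1.17.1 for the intervals, matplotlib 3.10.9 for the figures, and pandas 2.3.3 and numpy 2.4.6. A few genes and 1 planned split of the cells are not reported here.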

Additional observations from a re-analysis of the deposited data

Results flagged for a closer look

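The rule for CD8 T cells also found 6 cells among the 12881 barcodes of the CD45-negative library that passed the UMI and mitochondrial limits, a share of 0.0466% (Clopper-Pearson 0.0171 to 0.101%), with a median of 7971.5 UMIs. That library entered no comparison. The rule for CD4 T cells found 10 there (0.0776%), and those for regulatory T and NK cells found 0 each, which allows a share of up to 0.0286% by the Clopper-Pearson limit.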

How the results depend on the processing

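None of the ratios over CD4 T cells followed in 34 genes reversed under the alternatives run. The median log2 ratio of interferon-stimulated genes over regulatory T cells, 0.14, was -0.05 with C1q below 10 per 10000. The share of CD8 T cells among kept barcodes, 8.83%, was 8.11% with barcodes from 500 UMIs, 9.73% from 2000 UMIs, 9.82% with Cd8a and Cd8b1 from 1 UMI, 8.19% from 3 UMIs, 7.96% with each chain required and 7% with C1q below 10 per 10000. Counts of genes at least 2-fold higher or lower followed the gene minimum. Over CD4 T cells they were 453 and 479, with 180 and 154 at a minimum of 100 UMIs and 948 and 1308 from 1 UMI. Over NK cells they were 811 and 822, with 328 and 224 at 100 UMIs and 2165 lower from 1 UMI. Over regulatory T cells they were 897 and 943, with 408 and 310 at 100 UMIs and 2073 lower from 1 UMI. At 1000 UMIs per cell the share with Itgae was 1.6% and with Mki67 and Top2a 3.79%. The Itgae split had 392 genes higher and 743 lower, and 977 and 95 when split and summed at 1000 UMIs, 42 and 243 at a minimum of 100 UMIs, and 646 and 1152 with cells weighted equally. Leaving out the 6 cells with MHC class II genes, an alternative added after seeing the data, moved each count of genes given here by less than 1.5 times. In the thinned split only 11 cells had Itgae, and 1 UMI in them is 90.91 CPM. For the thinned split and the equal weights the cause was not tested. The share of cells with a Trbv gene was 4.08% with at least 2 UMIs of the leading gene. Of 374 levels of 34 genes under the alternatives 324 moved by less than their interval, and of 442 ratios 414 did. No paired analysis was possible because there is 1 library per group. Depth limits the shares of cells with a gene, and 1 library leaves the spread between mice unknown.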

Other observations

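The counts and levels of this paragraph are against CD4 T cells. Over all genes 4.36% were at least 2-fold higher in CD8 than in CD4 T cells and 4.61% lower. Of 20 integrin and selectin ligand genes 5 were at least 2-fold higher (Cd226, Fut7, Itga1, Itgae, Itgax) and 1 lower (Itgb3, at 13.1 against 55 CPM). Selplg, encoding the P-selectin ligand, was at 560 against 482 CPM. Of 18 glycolysis and hypoxia genes 0 were higher and 1 was lower than in CD4 T cells, Hif1a, at 136 against 331 CPM. Gapdh was at 1087 against 968. Of 14 glucocorticoid-responsive genes 0 were higher and 2 lower (Dusp1, Il1r2), with a median log2 ratio of -0.25. Of 7 measured markers of innate lymphoid cells of type 2, 2 were higher (Calca, Hs3st1) and 3 lower (Arg1, Il13, Il5), and 1 CD8 T cell held 75.8% of the Calca UMIs.

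Pairs of inhibitory genes were found together in some cells. Tox was found in 35.1% of CD8 T cells with Pdcd1 and 14.4% of those without. At 1000 UMIs per cell it was in 7.04% (2.33 to 15.7) and 4.07% (2.65 to 5.94). Lag3 was found in 34.1% and 19.7%, and at 1000 UMIs in 7.04% (2.33 to 15.7) and 5.37% (3.72 to 7.45). At 1000 UMIs each pair was found together in 5 cells and the intervals overlapped, so these values do not show pairing at equal depth.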
